A study of Drosophila melanogaster with 144 samples.

Results

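Obp99a, fit, rost, CG10814 and Obp56e are 5 of the 17381 genes counted in RNA from heads of adult Drosophila melanogaster. They were chosen by measured values of these same libraries: their RNA stood far higher in female than in male heads. The yolk protein genes were set apart. The sex difference is therefore described below without a test. Line, circadian time, replicate number and the covariation of the 5 genes were not used in the choice and were tested.

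Odorant-binding proteins, the family of Obp99a and Obp56e, are small secreted proteins. Many of them carry odorants through the fluid around olfactory neurons, and others are made in tissues that do not smell. The fat body, an adipose and liver-like tissue that also lies in the head around the brain, differs strongly between the sexes and makes yolk proteins in females. It secretes the product of fit (female-specific independent of transformer), a satiety signal that acts after protein-rich food by way of insulin release. The gene rost (rolling stone) encodes a membrane protein known for its part in the fusion of myoblasts in the embryo.

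The series compared DGRP_892, an inbred line with a long circadian period, with Canton-S B, whose period is 24 h and whose cultures carried the eye colour allele w1118 per the labels. Virgin males and females were entrained for 3 days to equal spans of light and darkness (12 h each), kept in constant darkness for another 3 days and then frozen every 2 h at 12 circadian times (CT, in hours). Each library held RNA pooled from 150 heads of 1 line, sex and time, and the whole procedure was run 3 times, which gave 36 libraries for each line and sex and 3 for each of the 48 groups. Each line is 1 stock, so a difference between the lines cannot be told apart into period, the w allele and other differences of the stocks. The p-values measure the spread between these libraries.

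Gene counts per library went from 11.7 M to 37.3 M (M, 1000000 counts) around a median of 15.2 M. By the labels' library numbers they fell into 48 deeper libraries with at least 25.5 M and 96 shallower ones with at most 18.01 M, and both classes held both lines and sexes. Eye, neuron, glia and head fat body markers were present in all 4 combinations of line and sex. Some libraries carried signal of the other sex, whose source was not tested: in 16 male libraries, 13 of Canton-S B and 3 of DGRP_892, the summed yolk protein transcripts exceeded 2% of the female median of the line, up to 14.8%. In 5 female libraries, 2 of Canton-S B and 3 of DGRP_892, the male-specific roX transcripts exceeded 2% of the male median, up to 5.56%. Male correlations past the threshold and the male results named below as resting on these libraries are given with and without them.

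The 5 genes lie apart from each other on 3 chromosome arms (FlyBase release 6 coordinates). Obp99a (FBgn0039678) occupies 3R 29671657 to 29672334 on the plus strand, with 610 bases in exons. The single exon of fit (FBgn0038914) spans 3R 21883924 to 21884454 on the minus strand, 531 bases. At 2L 8985936 to 8989539 on the minus strand lies rost (FBgn0011705), the longest transcript set with 1671 exonic bases in 5 blocks. CG10814 (FBgn0033830) lies at 2R 13375975 to 13377731, minus strand, with 1458 exonic bases. Obp56e (FBgn0034471), at 2R 19712345 to 19712932 on the plus strand, has 532 exonic bases and is a member of the Obp56 cluster. Of Obp56e, 84.4% is overlapped by asRNA:CR44509 on the other strand, which reached a median of at most 0.848 CPM (counts per 1000000 gene counts) in any line and sex. The exon of fit shares 67 bases with CG31465 on the other strand, whose median was at most 0.170 CPM. It also shares 32 bases with asRNA:CR45046 on its own strand, whose medians were 8.03 CPM in Canton-S B and 31.98 CPM in DGRP_892 females.

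Levels are given as CPM after TMM scaling, with the lowest, median and highest of 36 libraries. Obp99a was nearly absent from male heads. In Canton-S B it ran from 11 through 35.5 to 125 CPM in females and from 0 through 0.338 to 5.71 CPM in males. In DGRP_892 it ran from 34.2 through 114.5 to 249 CPM in females and from 0.0582 through 0.382 to 6.67 CPM in males. The sexes did not overlap in either line, and the female median was 104.8 times the male median in Canton-S B and 299.5 times in DGRP_892. Without the libraries that carry signal of the other sex, the male median was 0.237 CPM in Canton-S B (n = 23) and 0.348 in DGRP_892 (n = 33).

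The satiety gene fit was detected in all male libraries. In Canton-S B it ran from 100.4 through 346 to 1113 CPM in females and from 7.76 through 21.3 to 98.6 CPM in males, so that the lowest female library lay just above the highest male one. That male library, replicate 1 at CT06, carried signal of the other sex. Without such libraries the Canton-S B male median was 16.8 CPM and the highest value 41.15 CPM (n = 23). In DGRP_892 fit ran from 312 through 709.5 to 1684 CPM in females and from 51.7 through 130.1 to 369 CPM in males. There 3 of the 36 female libraries lay at or below the highest male library. The ratio of medians was 16.3 in Canton-S B and 5.46 in DGRP_892.

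The membrane protein gene rost and the odorant-binding gene Obp56e were present in both sexes at levels that did not overlap. For rost the female libraries ran from 41.3 through 70.4 to 138.2 CPM in Canton-S B, against 6.76 through 9.45 to 12.7 CPM in males. In DGRP_892 they ran from 90.7 through 143.4 to 195.5 CPM, against 8.69 through 14.04 to 21.7 CPM. Female medians were thus 7.46 times the male ones in Canton-S B and 10.2 times in DGRP_892. Obp56e ran from 1038 through 1346 to 1937 CPM in Canton-S B females and from 113.5 through 197 to 264 CPM in males. In DGRP_892 it ran from 489.7 through 668 to 811 CPM in females and from 44.3 through 76.1 to 147 CPM in males. Its ratio of medians was 6.83 in Canton-S B and 8.78 in DGRP_892.

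CG10814 was the lowest and the most variable member. It ran from 1.17 through 4.01 to 99.2 CPM in Canton-S B females and from 0 through 0.228 to 11.2 CPM in males. In DGRP_892 it ran from 0.323 through 3.74 to 57.5 CPM in females and from 0 through 0.334 to 6.66 CPM in males. The sexes overlapped: 33 of 36 Canton-S B females and 24 of 36 DGRP_892 females lay at or below the highest male of their line. The highest Canton-S B male, replicate 1 at CT06, had yolk transcripts at 14.8% of the female median. Without the libraries with signal of the other sex the highest male held 4.26 CPM in Canton-S B (n = 23) and 6.66 CPM in DGRP_892 (n = 33). In each line 3 male libraries had no read of CG10814, which at the depth of these libraries allows 0.0931 to 0.240 CPM (3 counts, counting error only).

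**Figure D1:**
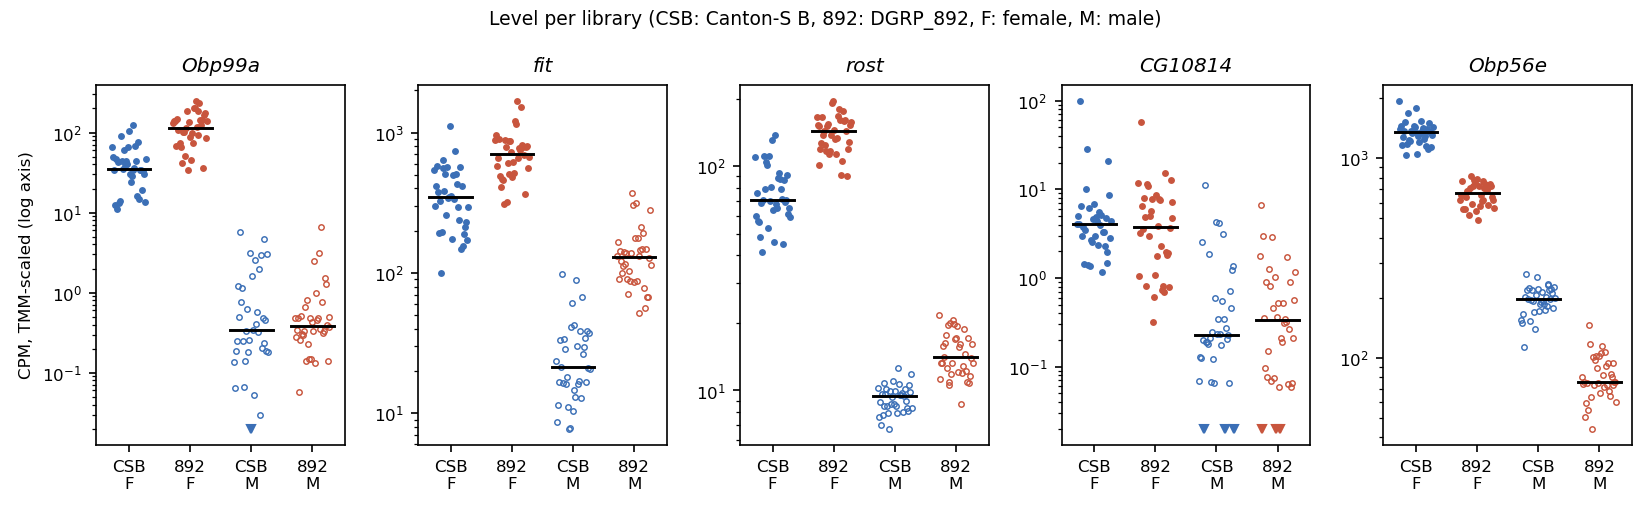
Level of each gene in CPM (log axis) in every library, by line (Canton-S B blue, DGRP_892 red) and sex (F, M); points are libraries, bars are medians of 36 and triangles at the bottom are libraries at 0 CPM. Female points lie above male points without overlap for Obp99a, rost and Obp56e, and the Obp56e levels of the 2 female groups do not overlap either.

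Per length of exon, Obp56e stood highest in Canton-S B females, at 2544 ± 356 CPM per kilobase (mean ± SD, n = 36), followed by fit at 717 ± 382.5, Obp99a at 69.2 ± 42.9, rost at 46.2 ± 14.1 and CG10814 at 5.30 ± 11.3. There the means of Obp99a and rost differed by less than the SD of Obp99a, and the SD of CG10814 exceeded its mean. In DGRP_892 females the first places were exchanged, with fit at 1390 ± 568 CPM per kilobase and Obp56e at 1249 ± 157, a difference smaller than the SD of fit. Obp99a followed at 196 ± 90.8, rost at 84.4 ± 15.8 and CG10814 at 4.33 ± 6.62.

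The members also differed in how tightly their CPM were held among female libraries. The coefficient of variation of Obp56e was 13.99% in Canton-S B and 12.5% in DGRP_892, and that of rost was 30.5% and 18.7%. For fit it was 53.4% and 40.9%, and for Obp99a 61.95% and 46.3%. CG10814 reached 214% and 153%, and its highest library in both lines was replicate 1 at CT04, at 99.2 CPM in Canton-S B and 57.5 CPM in DGRP_892.

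The comparison of the lines asked which of these transcripts differ between heads of the long-period line and of Canton-S B. In females, Obp99a, fit and rost were higher in DGRP_892 and Obp56e was lower, each at all 12 times. These are 4 of 5 members past the threshold, where 60.2% of all genes tested were past it (27.7% higher and 32.5% lower in DGRP_892), so the number of calls alone sets the members little apart. Log2 fold changes (DGRP_892 over Canton-S B) come from edgeR's quasi-likelihood test with Benjamini-Hochberg adjustment over all genes, with 36 libraries of each line.

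Obp99a averaged 42.2 ± 26.2 CPM in Canton-S B females and 119.7 ± 55.4 CPM in DGRP_892 females (mean ± SD, n = 36 each). The log2 fold change was 1.53 ± 0.18 (± SE; adjusted p = 3.64e-12). The lines overlapped, with 20 of 36 DGRP_892 libraries at or below the highest Canton-S B library. For fit the means were 381 ± 203 and 738 ± 302 CPM, a log2 fold change of 0.99 ± 0.16 (adjusted p = 2.76e-08), and 32 of 36 DGRP_892 libraries lay at or below the highest Canton-S B library. That library, replicate 3 at CT12, held 1113 CPM, whereas the other replicates of its group held 343 and 349.8 CPM. For rost the means were 77.2 ± 23.6 and 141.1 ± 26.4 CPM, a log2 fold change of 0.88 ± 0.07 (adjusted p = 5.26e-21), with 17 of 36 overlapping in this way.

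Obp56e was the only member whose female libraries separated the lines completely, with 1354 ± 189 CPM in Canton-S B and 665 ± 83.3 CPM in DGRP_892. Its log2 fold change was -1.02 ± 0.06 (adjusted p = 3.23e-31). How many of all genes separated the lines in this way was not counted. Past the threshold with a change of at least 2-fold in females were 871 of 10894 genes. CG10814 averaged 7.72 ± 16.5 and 6.32 ± 9.65 CPM, a log2 fold change of -0.33 ± 0.32 (adjusted p = 0.373). This gene was higher in DGRP_892 at 7 of 12 times, and the spread between libraries was larger than the difference.

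In males, 3 of 5 members were past the threshold, against 55.4% of all genes tested (26.1% higher and 29.3% lower in DGRP_892). The level of fit was 28.7 ± 21.4 CPM in Canton-S B males and 141.4 ± 74.4 CPM in DGRP_892 males, a log2 fold change of 2.38 ± 0.16 (adjusted p = 7.25e-25), and 11 of 36 DGRP_892 libraries lay at or below the highest Canton-S B library. For rost it was 9.28 ± 1.30 and 14.8 ± 3.37 CPM, a log2 fold change of 0.67 ± 0.08 (adjusted p = 2.13e-13). Obp56e stood at 196 ± 31.8 and 82.5 ± 20.98 CPM, a log2 fold change of -1.26 ± 0.06 (adjusted p = 1.11e-37). These 3 genes thus had the direction that they had in females, at all 12 times. Obp99a, at 0.980 ± 1.38 and 0.751 ± 1.195 CPM, had a log2 fold change of -0.35 ± 0.43 (adjusted p = 0.503), and CG10814 one of -0.07 ± 0.55 (adjusted p = 0.927). Without the male libraries that carry signal of the other sex the log2 fold change of Obp99a was 0.79 (adjusted p = 0.232).

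The female minus the male log2 fold change is also the difference of the sex effect between the lines. Since the genes were chosen on the sex effect, it is given as a description, without p-values. It was past the threshold for 3 of 5 members and for 12.7% of all genes tested (6.43% positive and 6.24% negative), and nothing is read from that count. For fit the value was -1.40 ± 0.22 (± SE): the fitted line effect was positive in both sexes and larger in males. It was -1.96 without the libraries with signal of the other sex and -1.17 among the 48 deeper libraries. For Obp99a it was 1.88 ± 0.54, with values of 1.36 to 2.05 when a replicate number was left out and 0.70 without the libraries with signal of the other sex. For Obp56e it was 0.23 ± 0.08, for rost 0.21 ± 0.10 and for CG10814 -0.26 ± 0.58.

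**Figure D2:**
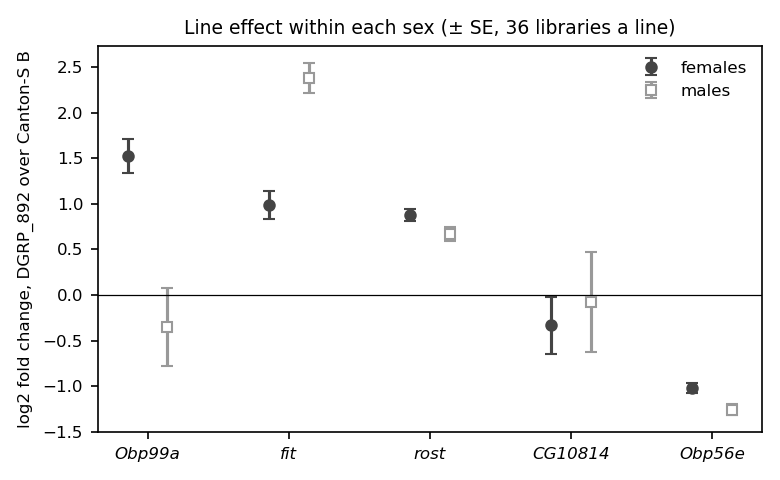
Log2 fold change of DGRP_892 over Canton-S B within females (filled circles) and males (open squares), with standard errors from the fit to all libraries. Obp56e lies below 0 and rost and fit above 0 in both sexes, fit at 0.99 in females and 2.38 in males, and the male Obp99a and both CG10814 intervals are wide.

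Summed markers of several cell types moved with the line. Those of the head fat body were higher in DGRP_892, as fit, Obp99a and rost were in females. All 4 of these markers (Lsp2, Fbp1, apolpp and FASN1) were detected, and their sum ran from 5158 through 7862 to 11630 CPM in Canton-S B females and from 13640 through 18930 to 26950 CPM in DGRP_892 females. In males the medians were 5400 and 12510 CPM. A large part of this line difference came from Lsp2 alone. It averaged 342 CPM in Canton-S B and 5025 CPM in DGRP_892 females, and 186 and 4230 CPM in males. A sum without Lsp2 was not taken, here or for the correlations below. The summed eye markers were also higher in DGRP_892, with medians of 54400 and 77890 CPM in females and 62580 and 81760 CPM in males. Flight muscle markers were lower in DGRP_892 and lower in males, as Obp56e was, with medians of 445 and 234 CPM in females and 239 and 136.3 CPM in males. Haemocyte markers had the same directions, with medians of 872 and 787 CPM in females and 524.5 and 468 CPM in males. Neuron and glia markers were lower in DGRP_892 too, but higher in males. Whether these marker levels had a part in the differences of the 5 genes was not tested. In these bulk samples more cells of a type and more RNA per cell cannot be told apart.

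Neighbouring odorant-binding genes went both ways. In the Obp56 cluster on 2R, Obp56e lies next to Obp56f, whose medians were low, at 1.22 CPM in Canton-S B and 0.414 CPM in DGRP_892 females, and which also fell in DGRP_892 (log2 fold change -1.61, adjusted p = 1.17e-10). Obp56a fell as well (-1.48, adjusted p = 4.22e-32), while Obp56d, the other abundant gene of the cluster with a median of 985 CPM in Canton-S B females, rose slightly (0.17, adjusted p = 0.00942), as did Obp56h (0.95, adjusted p = 7.99e-23). The female median of Obp56f was 8.41 times the male one in Canton-S B and 8.36 times in DGRP_892, beside 6.83 and 8.78 times for Obp56e. The male medians of Obp56f were only 0.146 and 0.0495 CPM, so its ratios rest on few counts. In Canton-S B the female median was 2.90 times the male one for Obp56a, 2.48 times for Obp56d and 0.619 times for Obp56h.

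Around Obp99a on 3R, all 3 other Obp99 genes were higher in DGRP_892 females, as Obp99a was: Obp99b by 1.97, Obp99c by 0.62 and Obp99d by 3.06 on the log2 scale (adjusted p = 8.49e-21, 2.89e-19 and 2.70e-38). None of the 3 had the strong female excess of Obp99a. Obp99b had medians of 2.83 CPM in Canton-S B females and 38.7 CPM in males, and of 10.6 and 412 CPM in DGRP_892. Obp99c stood at 554 and 659 CPM in Canton-S B females and males, and at 868 and 868 CPM in those of DGRP_892. Obp99d was low, at 0.512 and 0.289 CPM in Canton-S B females and males and at 3.81 and 3.83 CPM in those of DGRP_892.

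Of the other odorant-binding genes, 32 of 50 passed the filter, and in females 9 of them were higher and 12 lower in DGRP_892, with a median log2 fold change of -0.03 beside -0.02 over all genes tested. The largest differences among those with at least 5 CPM were those of Obp99b, Obp8a (0.97, adjusted p = 1.40e-11), Obp83cd (-1.49, adjusted p = 5.12e-31) and Obp56a. Of the 3 yolk protein genes, whose products fill the growing egg, Yp1 (0.71, adjusted p = 0.0422) and Yp3 (1.09, adjusted p = 1.01e-04) were higher in DGRP_892 females and Yp2 stood at 0.68 (adjusted p = 0.0781). In males all 3 were lower in DGRP_892, with a median of -1.26, in a comparison that includes the 16 libraries with raised yolk transcripts. A value without these libraries is not given.

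Fat body genes were mostly higher in DGRP_892 females: 17 of 18 measured rose and 1 fell, with a median log2 fold change of 0.80. They were led by the larval storage protein genes Lsp1alpha (5.22, adjusted p = 4.76e-41) and Lsp2 (4.10, adjusted p = 3.08e-22), and the one that fell was Cyp4d21 (-0.32, adjusted p = 1.69e-04), a cytochrome P450 gene known for its high level in male fat body. In males 14 of 18 were higher. Of 13 measured genes for insulin-like peptides and for fat body and gut signals that reach the insulin-producing cells, 7 were higher and 2 lower in females. The insulin-like peptide genes Ilp3 (1.72, adjusted p = 4.19e-38) and Ilp5 (1.28, adjusted p = 6.25e-23) led the first, and Ilp6 (-0.23, adjusted p = 4.97e-05) and the TNF gene egr (-0.20, adjusted p = 6.50e-11) were the second.

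Of 13 measured genes of myoblast fusion, the process rost is known for, 1 was higher and 5 were lower in DGRP_892 females, including the adhesion genes rst (-0.40, adjusted p = 3.76e-13) and kirre (-0.37, adjusted p = 3.51e-05), with a list median of -0.09. Of 8 sex determination genes, tra2 (0.19, adjusted p = 2.58e-07) and ix (0.11, adjusted p = 0.0218) were higher and 3 were lower, among them fru (-0.17, adjusted p = 0.00506) and tra (-0.16, adjusted p = 0.0141). The line effect differed between the sexes for 0 of 8.

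Whether the 5 transcripts cycle was asked with a 24-h cosine in each line and sex. In female heads 0 of 5 passed in either line, where 3.52% of all genes passed in Canton-S B and 0.119% in DGRP_892. At an unadjusted p under 0.05, 3 of 5 stood in females of Canton-S B and 1 of 5 in those of DGRP_892, and DESeq2 also gave 0 of 5 past the adjusted threshold in both lines. The share of all genes at the unadjusted threshold was not counted, here or below, so nothing is read from the unadjusted counts. The rhythm differed between the lines in females for 0 of 5 members, where 0.0918% of all genes did (adjusted p = 1 for each; 1 of 5, fit, at an unadjusted p under 0.05, and 0 of 5 by DESeq2).

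For CG10814 in Canton-S B females the fitted amplitude, the log2 distance from mean to peak, was 1.13 with a peak at CT 4.27 (adjusted p = 0.0542). At CT04 its 3 libraries held 99.2, 6.42 and 2.98 CPM, and at CT06 3.71, 1.42 and 3.51 CPM. In DGRP_892 females the amplitude was 0.88 with a peak at CT 4.01 (adjusted p = 0.682), and the 3 libraries at CT04 held 57.5, 6.50 and 3.59 CPM. The high library of this time is thus replicate 1 in both lines. Other libraries stood apart too, at 28.1 CPM (replicate 2 at CT08) and 20.7 CPM (replicate 3 at CT22) in Canton-S B females. The lowest times in DGRP_892 females were CT12, with 0.323, 0.610 and 1.08 CPM, and CT18, with 0.727, 0.821 and 0.700 CPM. When any difference among the 12 times was tested in place of a cosine, CG10814 was past the threshold in Canton-S B females (adjusted p = 0.0303) and it did not pass in DGRP_892 females. Without replicate 3 the cosine was past it in Canton-S B (amplitude 1.56, adjusted p = 0.0425), and without the highest library of each line the amplitudes were 0.35 and 0.41 (adjusted p = 0.812 and 0.770).

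Obp99a and fit varied more between the times than rost and Obp56e did, but also more within a time. Group means of Obp99a ran from 23.2 ± 16.7 CPM at CT06 to 70.4 ± 32.7 CPM at CT12 in Canton-S B females (SD, n = 3). In DGRP_892 females they ran from 70.2 ± 3.495 CPM at CT06 to 219 ± 25.9 CPM at CT16. The 3 libraries of DGRP_892 females at CT16 held 203, 205 and 249 CPM of Obp99a, and those at CT06 held 69.96, 73.8 and 66.8 CPM. For fit the same 2 times were the extremes in DGRP_892 females, with 1216, 1153 and 1684 CPM at CT16 and 412, 467 and 463 CPM at CT06. These times were picked as the highest and lowest of 12 means, so nothing is read from their distance. Over these libraries fit and Obp99a varied together (r 0.85), so fit is no independent repeat. In Canton-S B females fit ran from 185 ± 28.4 CPM at CT22 to 602 ± 443 CPM at CT12. Libraries of 1 time and line still differed by up to 5.18 times for Obp99a in Canton-S B and 4.65 times in DGRP_892. The cosine amplitudes of Obp99a were 0.39 in Canton-S B (adjusted p = 0.503) and 0.45 in DGRP_892 (adjusted p = 0.717), and those of fit 0.43 (adjusted p = 0.308) and 0.35 (adjusted p = 0.717).

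For rost the female group means ran from 53.9 ± 4.96 CPM at CT04 to 98.3 ± 16.8 CPM at CT08 in Canton-S B and from 115.9 ± 13.5 CPM at CT04 to 175 ± 31.9 CPM at CT12 in DGRP_892. CT04 was the lowest time in both lines. Obp56e was the flattest member, with means from 1227 ± 159 CPM at CT14 to 1598 ± 295 CPM at CT02 in Canton-S B and from 588 ± 55.7 CPM at CT04 to 734 ± 9.64 CPM at CT22 in DGRP_892. Its cosine amplitudes were 0.024 and 0.027 (adjusted p = 0.973 and 0.971).

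**Figure D3:**
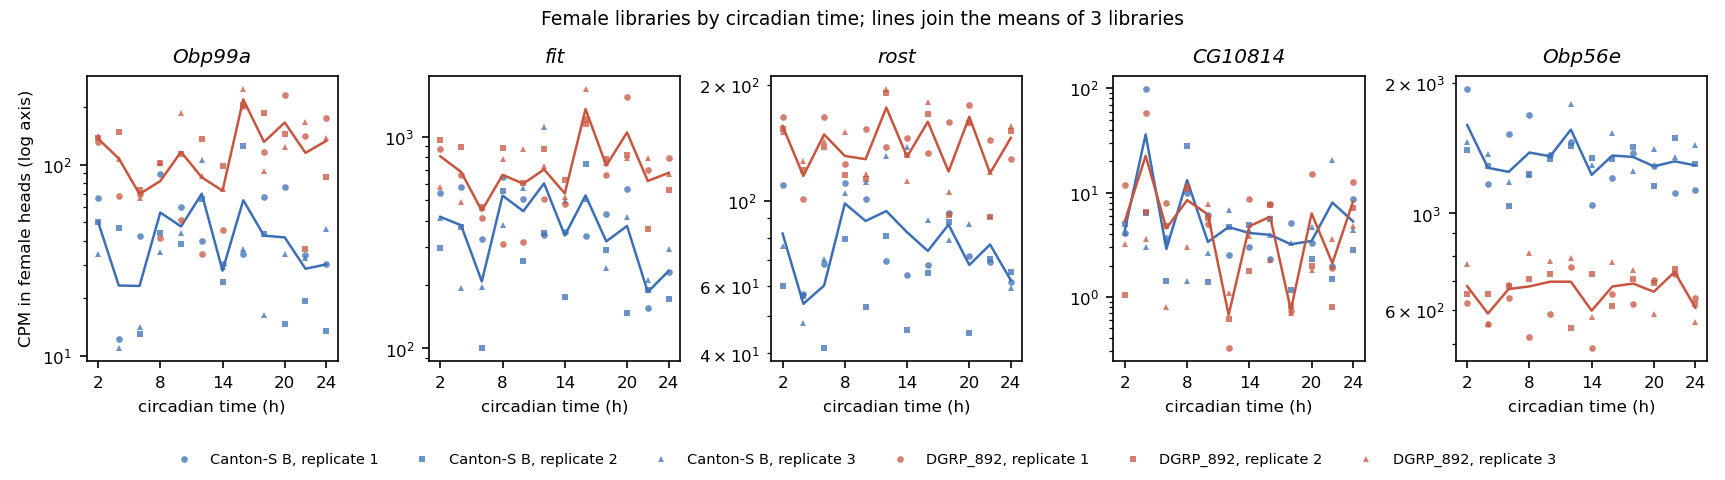
Level in CPM (log axis) of each gene in female heads against circadian time in hours, with a symbol for each replicate number and lines through the means of 3 libraries for Canton-S B (blue) and DGRP_892 (red). The lines through the means are apart at all 12 times for Obp99a, fit, rost and Obp56e, those of Obp99a and fit in DGRP_892 are highest at CT16, and at CT04 the CG10814 mean is carried by replicate 1 in each line.

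In males 0 of 5 members passed in Canton-S B, where 4.62% of all genes did. At an unadjusted p under 0.05 0 of 5 stood there, and DESeq2 gave 0 of 5. In DGRP_892 males Obp99a passed, with an amplitude of 1.43 and a peak at CT 18.1 (adjusted p = 0.0295), 1 of 5 where 2.29% of all genes passed. Its 3 libraries at CT18 held 3.11, 0.348 and 6.67 CPM, and the next highest DGRP_892 male library, replicate 2 at CT14, held 2.49 CPM. The high libraries at CT18, replicates 1 and 3, are among those with yolk transcripts over the limit, at 4.43% and 3.67% of the female median, and all 3 yolk genes passed the same test in these males. Without the libraries that carry signal of the other sex the amplitude of Obp99a was 0.58 (adjusted p = 0.979). The call was also lost without replicate 2 (adjusted p = 0.946) or replicate 3 (adjusted p = 0.898).

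The replicate number, which the labels give to libraries of a procedure run 3 times, was asked next. In Canton-S B females rost differed between the numbers, 1 of 5 members where 18% of all genes differed. Its libraries ran from 57.1 through 69.4 to 110.9 CPM in replicate 1, from 41.3 through 62.5 to 87.8 CPM in replicate 2 and from 48.2 through 87.9 to 138.2 CPM in replicate 3 (lowest, median and highest of 12). Replicate 2 was lowest and replicate 3 highest, with overlap, and the fitted difference between the extremes was 0.52 on the log2 scale (adjusted p = 0.00112). The call was lost without replicate 2 (0.17, adjusted p = 0.519), without replicate 3 (0.33, adjusted p = 0.0909), with ERCC scaling (0.26, adjusted p = 0.588) and with runs of 24 library numbers as a term (0.30, adjusted p = 0.229).

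In DGRP_892 females 0 of 5 members differed between replicate numbers, where 0.441% of all genes did, and DESeq2 also gave 0 of 5. At an unadjusted p under 0.05, for which no share of all genes was counted, there was 1, CG10814. The medians of rost were 144.7, 134.9 and 146.7 CPM in replicates 1, 2 and 3 there. The medians of CG10814 were 8.33, 3.41 and 3.08 CPM, a fitted difference of 1.47 on the log2 scale (adjusted p = 0.380). Whether the replicate numbers differ more in 1 line than in the other was not tested.

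Covariation was measured over the 36 libraries of each line and sex as Pearson's r of log2 CPM, with two-sided permutation p-values adjusted over all 40 pairs of members, lines and sexes. Of these, 14 were past 0.05: 7 of 10 pairs in Canton-S B females, 4 in Canton-S B males, 1 in DGRP_892 females and 2 in DGRP_892 males. Without the libraries with signal of the other sex the 4 calls in Canton-S B males became 0 (n = 23; r of 0.43 for Obp99a and fit, 0.091 for Obp99a and rost, 0.40 for fit and rost, 0.37 for fit and Obp56e; adjusted permutation p = 0.122 to 0.777). The numbers of calls were not tested against each other, and the share of calls over pairs of other genes was not measured. Correlations of this size were not particular to pairs of members. Among about 10890 other genes, the mean r of both female groups exceeded 0.5 for 311 with Obp99a, 613 with fit and 902 with rost. For CG10814 there were 232 such genes and for Obp56e 23.

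Obp99a and fit rose and fell together in females of both lines. In DGRP_892 females r was 0.85 and Spearman's rho 0.83 (adjusted permutation p = 1.33e-04, the smallest that the permutations can give here; n = 36). The r was 0.87 without the 2 libraries farthest from the median of Obp99a, 0.89 in the 10 deeper and 0.84 in the 26 shallower libraries, and 0.82 after removing time and replicate number. In Canton-S B females r was 0.72 and rho 0.67 (adjusted permutation p = 1.33e-04), with 0.69 without the 2 farthest libraries, 0.47 in the 15 deeper and 0.87 in the 21 shallower libraries. The library with the highest Obp99a in DGRP_892, replicate 3 at CT16 with 249 CPM, also held the highest fit, 1684 CPM. In Canton-S B males r was 0.76 and fell to 0.43 (adjusted permutation p = 0.122, n = 23) without the libraries that carry signal of the other sex. In DGRP_892 males r was 0.19 (adjusted permutation p = 0.452).

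**Figure D4:**
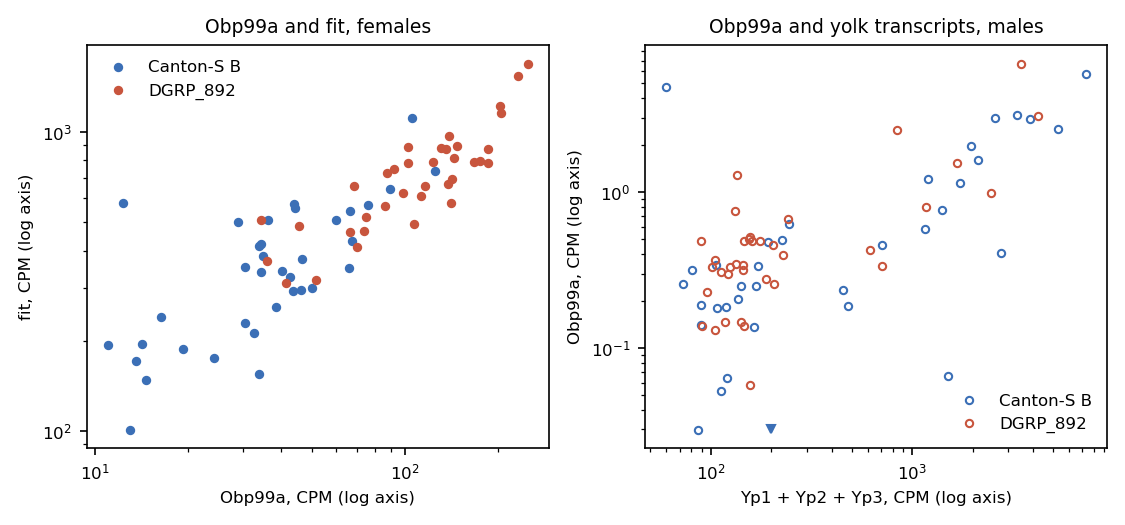
Left, fit against Obp99a in CPM (log axes) in the 72 female libraries, with r of 0.72 in Canton-S B and 0.85 in DGRP_892. Right, Obp99a against the summed CPM of Yp1, Yp2 and Yp3 in the 72 male libraries (log axes; the triangle is a library with Obp99a at 0), with r of 0.66 and 0.76; most of the highest Obp99a values lie at high yolk levels, with the exception of a Canton-S B male at 4.75 CPM.

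Between fit and rost r was 0.66 in Canton-S B females, 0.66 in males of Canton-S B and 0.66 in those of DGRP_892 (adjusted permutation p = 2.00e-04, 2.40e-04 and 2.67e-04), and 0.28 in DGRP_892 females (adjusted permutation p = 0.202). Without the libraries with signal of the other sex it was 0.40 in Canton-S B males (adjusted permutation p = 0.166, n = 23) and 0.67 in DGRP_892 males (adjusted permutation p = 4.00e-04, n = 33). The deeper and shallower values were 0.73 and 0.63 in Canton-S B females, 0.84 and 0.60 in Canton-S B males and 0.81 and 0.69 in DGRP_892 males. In DGRP_892 females they were 0.64 (n = 10) and 0.065 (n = 26). Within replicates 1, 2 and 3 of DGRP_892 males r of fit and rost was 0.15, 0.73 and 0.76 (n = 12 each). After removing time and replicate number it was 0.45 there (adjusted permutation p = 0.0214), and 0.70 and 0.68 in Canton-S B females and males. Obp56e went with Obp99a, fit and rost in Canton-S B females, at r of 0.54, 0.50 and 0.52 (adjusted permutation p = 0.00383, 0.00575 and 0.00529). The call with rost was lost without replicate 1 or 2 (adjusted permutation p = 0.0934 and 0.051), and that with fit without replicate 3 (adjusted permutation p = 0.109). For fit and Obp56e rho was 0.34 (adjusted permutation p = 0.0991), and r without the 2 farthest libraries was 0.32. In DGRP_892 females these values were 0.24, 0.30 and -0.085, and 0 of the 3 passed. CG10814 passed with fit in Canton-S B females (r 0.42, adjusted permutation p = 0.033; 0.37 without the 2 farthest libraries) and, inversely, with Obp56e in DGRP_892 males (r -0.45, adjusted permutation p = 0.0166). The first call was lost without replicate 1 or 2 and without the libraries with signal of the other sex (adjusted permutation p = 0.0634). The second was lost without replicate 1 or 3 and after removing time and replicate number (r -0.24, adjusted permutation p = 0.296). It was kept without the libraries with signal of the other sex (r -0.45, adjusted permutation p = 0.0355, n = 33).

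**Figure D5:**
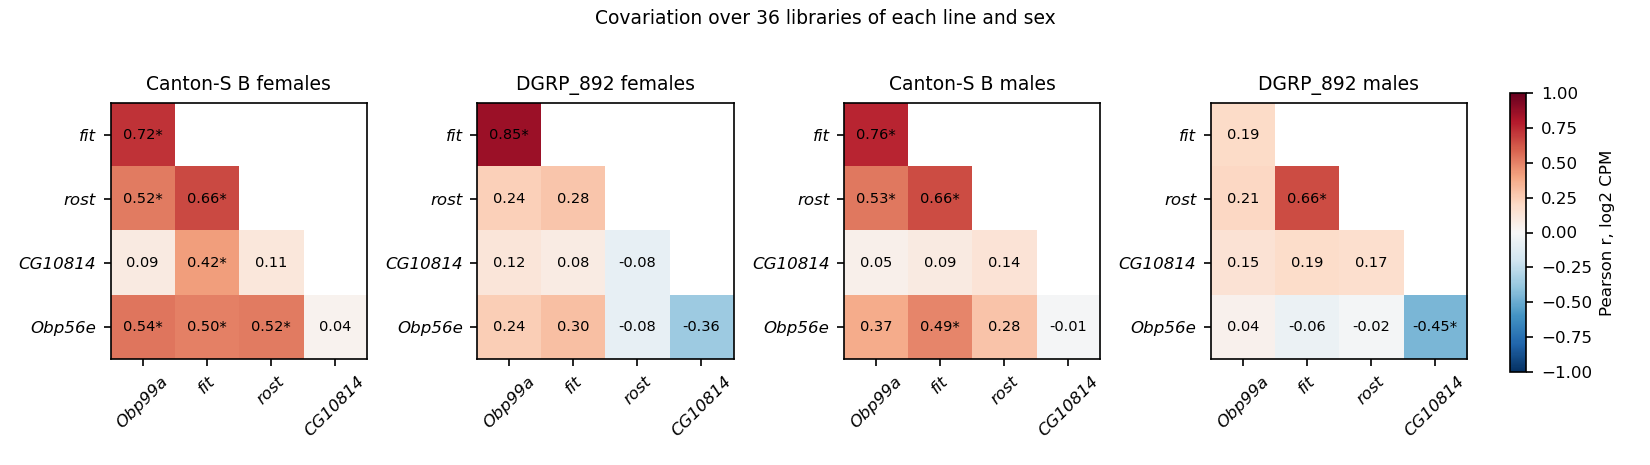
Pearson's r of log2 CPM between the genes over the 36 libraries of each line and sex, printed in each cell, with an asterisk where the permutation p adjusted over the 40 pairs was under 0.05. The Obp99a and fit cell carries an asterisk in 3 of the 4 panels, and 7 of 10 cells carry an asterisk in Canton-S B females against 1 in DGRP_892 females.

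The yolk protein transcripts went with Obp99a in females of both lines, and in males with an exception given below. In females r with their sum was 0.59 in Canton-S B and 0.59 in DGRP_892 (adjusted permutation p = 5.20e-04 and 5.67e-04 over 20 relations), with rho of 0.56 and 0.64, 0.58 and 0.67 without the 2 farthest libraries, 0.47 in the deeper libraries of both lines, and 0.70 and 0.69 in the shallower ones. In males it was 0.66 and 0.76 (adjusted permutation p = 2.00e-04 for both), and without the libraries over the limit -0.041 (n = 23) and 0.58 (n = 33). That limit was set on the same yolk sum, so leaving libraries out by it cuts the range of the sum. A lower r then decides nothing, here and for the other genes below. Libraries just under the limit stayed in, such as replicate 1 at CT22 in DGRP_892, with 1666 CPM of yolk transcripts. For fit r was 0.48 and 0.52 in females (adjusted permutation p = 0.0069 and 0.00289), 0.66 in males of Canton-S B and 0.15 in those of DGRP_892. Without the libraries over the limit the male values of fit were 0.11 (adjusted permutation p = 0.845, n = 23) and 0.08 (n = 33). In the 15 deeper Canton-S B female libraries, however, r of fit was -0.054, against 0.69 in the 21 shallower ones, and in DGRP_892 females it was 0.51 and 0.54. With rost in females it was 0.026 and 4.65e-04. In Canton-S B males r with the yolk sum was 0.61 for rost and 0.39 for Obp56e (adjusted permutation p = 4.00e-04 and 0.0394). Without the libraries over the limit these 2 values were 0.27 and 0.20 (adjusted permutation p = 0.506 and 0.654, n = 23).

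The summed head fat body markers went with fit, at r of 0.85 in Canton-S B females, 0.71 in DGRP_892 females, 0.59 in males of Canton-S B and 0.67 in those of DGRP_892 (adjusted permutation p = 6.67e-05, 6.67e-05, 4.67e-04 and 8.00e-05 over 20 relations). Spearman's rho was 0.80, 0.69, 0.63 and 0.66 in the same order, and r without the 2 farthest libraries 0.83, 0.66, 0.54 and 0.65. In the deeper libraries r was 0.80, 0.92, 0.68 and 0.67, and in the shallower ones 0.92, 0.59, 0.56 and 0.71. For rost r was 0.61, 0.52, 0.69 and 0.63, and for Obp99a 0.64, 0.76, 0.38 and 0.35, all past the threshold. Without the libraries with signal of the other sex the values in Canton-S B males (n = 23) were 0.40 for fit (adjusted permutation p = 0.106), 0.65 for rost (adjusted permutation p = 0.00138), 0.076 for Obp99a and 0.35 for Obp56e (adjusted permutation p = 0.724 and 0.158). In DGRP_892 males (n = 33) they were 0.67 for fit, 0.66 for rost (adjusted permutation p = 1.50e-04 and 1.60e-04) and 0.23 for Obp99a (adjusted permutation p = 0.261). CG10814 ranged from 0.014 to 0.20 and passed in 0 of 4. Obp56e passed in both Canton-S B sexes, at 0.42 and 0.43, and stood at 0.20 and -0.25 in DGRP_892. Whether the amount of fat body in a library had a part in the covariation of the members was not tested.

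The genes whose pattern over female libraries was most like each member were found among all other genes tested, by the mean of r in the 2 lines, and are a description without a test. CG5958 and CG3597 stood first or second for both fit (0.89 and 0.85) and Obp99a (0.81 and 0.83), followed by Oscillin (0.85) for fit and alpha-Est2 (0.81) for Obp99a. CG5958 had medians of 125 CPM in females of Canton-S B and 182 in those of DGRP_892, and of 77.2 and 119.4 in males. Those most like rost were CG13794 (0.86), the kinase gene CaMKI (0.84) and MFS17 (0.80), whose female and male medians in Canton-S B were 49.7 and 45.8, 510 and 481, and 60.3 and 58.95 CPM. For CG10814 they were CG15784 (0.79), Srg3 (0.77) and CG1637 (0.76). For Obp56e they were its cluster neighbours Obp56d (0.64) and Obp56a (0.61) and the gene osy (0.60).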

How the data were processed

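Poly(A) RNA from fly heads was sequenced in 144 libraries. The authors deposited unnormalized read counts for 17381 genes and 92 ERCC spike-in transcripts, and 1 empty column went unused. Per the submitters' processing notes the tools were STAR 2.5.3a, featureCounts 1.5.2 and FastQC 0.11.5, and the series' design text gives FlyBase release 6 as the genome. The kit keeps the strand, but no source used here says whether the counting did, so reads of overlapping antisense genes cannot be told apart from those of the members. A second table, which the authors deposited as batch-corrected, TMM-normalized values, holds numbers below 0. It was treated as a score without fixed range and served as an alternative only, by limma on log2(value + 20) with values below 0 set to 0.

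Gene names, coordinates and exon lengths came from the Ensembl annotation of the same assembly, which named 17239 of the gene identifiers. ERCC transcripts, 0.387% of all counts, were left out of library sizes. A filter (filterByExpr over the 48 groups, minimum count 10, minimum total 15) left 10894 genes with 99.97% of the gene counts, and all 5 members passed it. The tests used edgeR 4.0.16 in R 4.3.3 with TMM scaling, robust glmQLFit and glmQLFTest, fitted to all 144 libraries, p-values adjusted by Benjamini-Hochberg across all 10894 genes, threshold 0.05. Line effects were contrasts of the 48 group means, rhythms were a 24-h cosine and sine for each line and sex, and replicate numbers were tested beside time. The tests were checked on simulated counts. Levels are TMM-scaled counts per 1000000 gene counts (CPM). Correlations used log2 CPM with a prior count of 2 and 100000 permutations. Likeness of another gene to a member is the mean over both lines of Pearson's r over the 36 female libraries of a line, and the 3 genes with the highest values are named for each member. From each gene list, beside its counts, up to 2 genes in each direction with the largest line effect in females are named among those past the threshold with at least 5 CPM in the higher line.

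The members, the gene lists and the tests were chosen with earlier results of these data known. Alternatives were DESeq2, ERCC scaling, no filter, leaving out each replicate number, a replicate block, runs of 24 library numbers as a term, separate fits of each sex, other tests of time, the deposited batch-corrected values, leaving out libraries with signal of the other sex and, for the correlations, a prior count of 0.5 and residuals after time and replicate number. Separate fits of the deeper and the shallower libraries and of the data without the highest CG10814 library of each line were added after seeing the data, as were the correlations with the summed yolk and head fat body markers. Deviations from group means were compared between the lines at the same sex and time. Same-numbered libraries had a median r of 0.0595 (72 pairs, 29 over 0.1), against -0.0274 for differently numbered ones (144 pairs, 29 over 0.1). Since not every same-numbered pair was over 0.1, the numbers were not used to pair samples. This rule does not show that same-numbered libraries are unrelated.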

Additional observations from a re-analysis of the deposited data

Results flagged for a closer look

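For 3 genes the difference between the line effects of female and male heads was past the threshold (edgeR, 36 libraries for each line and sex). As the genes were chosen on their sex effect, which enters this difference, the values are a description. The female minus male log2 fold change of DGRP_892 over Canton-S B was 1.88 for Obp99a, -1.40 for fit and 0.23 for Obp56e. The Obp99a and Obp56e calls were lost under several alternatives, and that of fit in the deeper libraries alone.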

How the results depend on the processing

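In females the line effects of all 5 genes kept their direction and their side of the threshold in all 70 combinations of gene and alternative. The difference of the line effects between the sexes is a description, since the genes were chosen on the sex effect. It was past the threshold for 3 of 5 genes and for 12.7% of all genes tested, and nothing is read from that count. The count was 1 to 2 when a replicate number was left out. Without the libraries with signal of the other sex it was 1, and in the deeper libraries 0. Rhythm calls in Canton-S B females went from 0 to 1 without a replicate number (range 0 to 1), with runs of library numbers as a term and by the test of any difference among times. That test also gave 1 in Canton-S B males (fit, adjusted p = 0.04999). The 1 call in DGRP_892 males became 0 with runs, with one sex in the fit, without the libraries with signal of the other sex, by any difference among times, and in the deeper or the shallower libraries, and ranged from 0 to 1 without a replicate number. The replicate call of rost became 0 with ERCC scaling and with runs, and ranged from 0 to 1. Of the correlations 14 became 9 without the libraries with signal of the other sex, and 10 to 12 without a replicate number. The direction of low male values changed. The male line effect of Obp99a ranged from -0.67 to 0.12 without a replicate number and was 0.79 without the libraries with signal of the other sex, 0.88 in the deeper and -0.94 in the shallower libraries. That of CG10814 ranged from -0.55 to 0.34, and was 0.019 with runs, and 0.29, 0.74 and -0.74 under the same 3 settings. For CG10814 the difference of the line effects between the sexes was 0.028 with ERCC scaling and 0.71 in the shallower libraries. The cause was not tested.

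Over all genes the line effect in females called 6556 genes, 2645 with ERCC scaling and 4275 in the deeper libraries. In males it called 6032, 2366 and 3472. The difference of the line effects between the sexes called 1381 genes, and 66 in the deeper libraries. Across alternatives rhythm calls ranged from 22 to 696 in Canton-S B females, 4 to 56 in DGRP_892 females, 6 to 1945 in Canton-S B males and 3 to 1363 in DGRP_892 males. Replicate calls ranged from 34 to 2722 in Canton-S B and 1 to 81 in DGRP_892 females, and rhythm differences between the lines from 0 to 30. With the replicate block the female line effect of Obp99a was 1.55, and the block changed no call of the 5 genes. Levels under 1 CPM, as of Obp99a and CG10814 in males, rest on few counts.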
